A study of Mus musculus with 12 samples.

Results

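Genes of iron handling and heme synthesis were examined in ventricular wall RNA of mice whose heart and skeletal muscle lacked Sdhaf4, an assembly factor of succinate dehydrogenase (mitochondrial complex II). The 10 genes were chosen by name from general knowledge of the pathway: Tfrc, Fth1, Ftl1, Slc40a1, Slc11a2, Aco1, Ireb2, Alas1, Alas2 and Fech. Of these, 9 were found by name among the 43686 rows of the deposited table, each on 1 row, and all 9 had enough counts to be tested. No row of the table carries the name Ftl1, the ferritin light chain, and it was not analysed here. The KO group was 6 mice with floxed Sdhaf4 alleles and Ckmm-Cre (Sdhaf4 fl/fl, Ckmm-Cre, labelled Sdhaf4-/-), in which Cre is driven by the muscle creatine kinase promoter, so cells of the heart other than muscle cells are not targeted. The WT group was 6 mice with the same floxed alleles and no Cre (Sdhaf4 fl/fl littermates). The labels give the strain of all 12 as C57BL/6, and the study's methods name C57BL/6J. The labels give an age of 2 months for both groups, whereas the study's own texts differ among themselves on the age of the mice used, so the age is taken from the labels. Total counts were 23747014 to 27159228 in the WT libraries and 26542930 to 31393393 in the KO libraries, and Sdhaf4 itself ranged from 14.3 to 30.3 CPM (counts scaled to the library total, here with TMM scaling) in WT and from 2.25 to 2.73 CPM in KO.

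Iron enters heart muscle cells mainly as transferrin-bound iron through the transferrin receptor (Tfrc), leaves the endosome through the divalent metal transporter (Slc11a2), is stored in ferritin (Fth1 and Ftl1 encode its heavy and light chains), and leaves the cell through ferroportin (Slc40a1). Iron regulatory proteins, encoded by Aco1 and Ireb2, bind hairpins called iron-responsive elements in the untranslated regions (UTRs) of target mRNAs when iron is scarce, and thereby stabilise Tfrc mRNA and block translation of ferritin, ferroportin and Alas2 mRNA. Heme is built from glycine and succinyl-CoA, the intermediate that lies just before succinate in the TCA cycle. Aminolevulinate synthase makes the first precursor (Alas1 in most tissues, Alas2 in red cell precursors) and ferrochelatase (Fech) inserts the iron at the end.

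The iron-responsive elements are shown because they are the sites through which the iron regulatory proteins are known to act on these mRNAs. Protein-coding transcripts of the GENCODE annotation of GRCm38 were searched on the sense strand for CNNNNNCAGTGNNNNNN, in which the 5 letters before and the 5 letters after the CAGTGN loop had to pair (G with T allowed). Of the 10 genes, 5 had a match, and each match is printed with the unpaired C of the stem and the loop in capitals. The Alas2 element spans a splice junction, so its genomic interval is longer than the sequence.
Tfrc 3′ UTR, chr16:32631219-32631248, plus strand: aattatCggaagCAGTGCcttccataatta
Tfrc 3′ UTR, chr16:32631598-32631627, plus strand: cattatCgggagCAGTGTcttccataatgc
Tfrc 3′ UTR, chr16:32631663-32631692, plus strand: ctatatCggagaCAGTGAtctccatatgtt
Tfrc 3′ UTR, chr16:32631710-32631739, plus strand: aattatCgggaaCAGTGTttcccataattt
Fth1 5′ UTR, chr19:9982732-9982761, plus strand: ttcctgCttcaaCAGTGCttgaacggaacc
Ftl1 5′ UTR, chr7:45459778-45459807, minus strand: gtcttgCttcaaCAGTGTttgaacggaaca
Slc40a1 5′ UTR, chr1:45925464-45925493, minus strand: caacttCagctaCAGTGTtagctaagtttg
Alas2 5′ UTR, chrX:150547458-150552150, plus strand: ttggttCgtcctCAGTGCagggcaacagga
The loop ended in C, T or A and the stems differed in sequence, although the Fth1 and Ftl1 elements shared the same stem letters before the loop. A match lay in a 5′ UTR in 0.142% and in a 3′ UTR in 0.59% of 21877 protein-coding genes. The strict pattern was not present in Aco1, Ireb2, Alas1, Fech or Slc11a2, which says only that these letters with a full stem are not there.

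In the KO hearts, Tfrc rose 5.56-fold, Alas1 rose 2.55-fold, and Slc40a1 fell to a level 3.96-fold lower than in WT. Fth1 fell more modestly, Slc11a2 and Ireb2 rose slightly, and Aco1, Alas2 and Fech did not pass the test. A gene was called when its p, from the quasi-likelihood test of edgeR and adjusted by Benjamini-Hochberg over all 17155 rows tested, was under 0.05. By this criterion 4 of the 9 genes rose and 2 fell, where 51.1% of all rows tested were called in either direction (25.6% higher and 25.5% lower), so 6 of 9 is not far from the background. Tfrc, Alas1 and Slc40a1, 3 of the 9, also passed a stricter criterion (adjusted p under 0.005 and a log2 change beyond 1 in size) that 10.2% of all rows passed. Over all 9 genes the median log2 fold change was 0.23, beside 0.00217 over all rows tested. For 5 of the 9 genes the ranges of the genotypes were separate, which held for 30.1% of all rows tested.

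**Figure D1:**
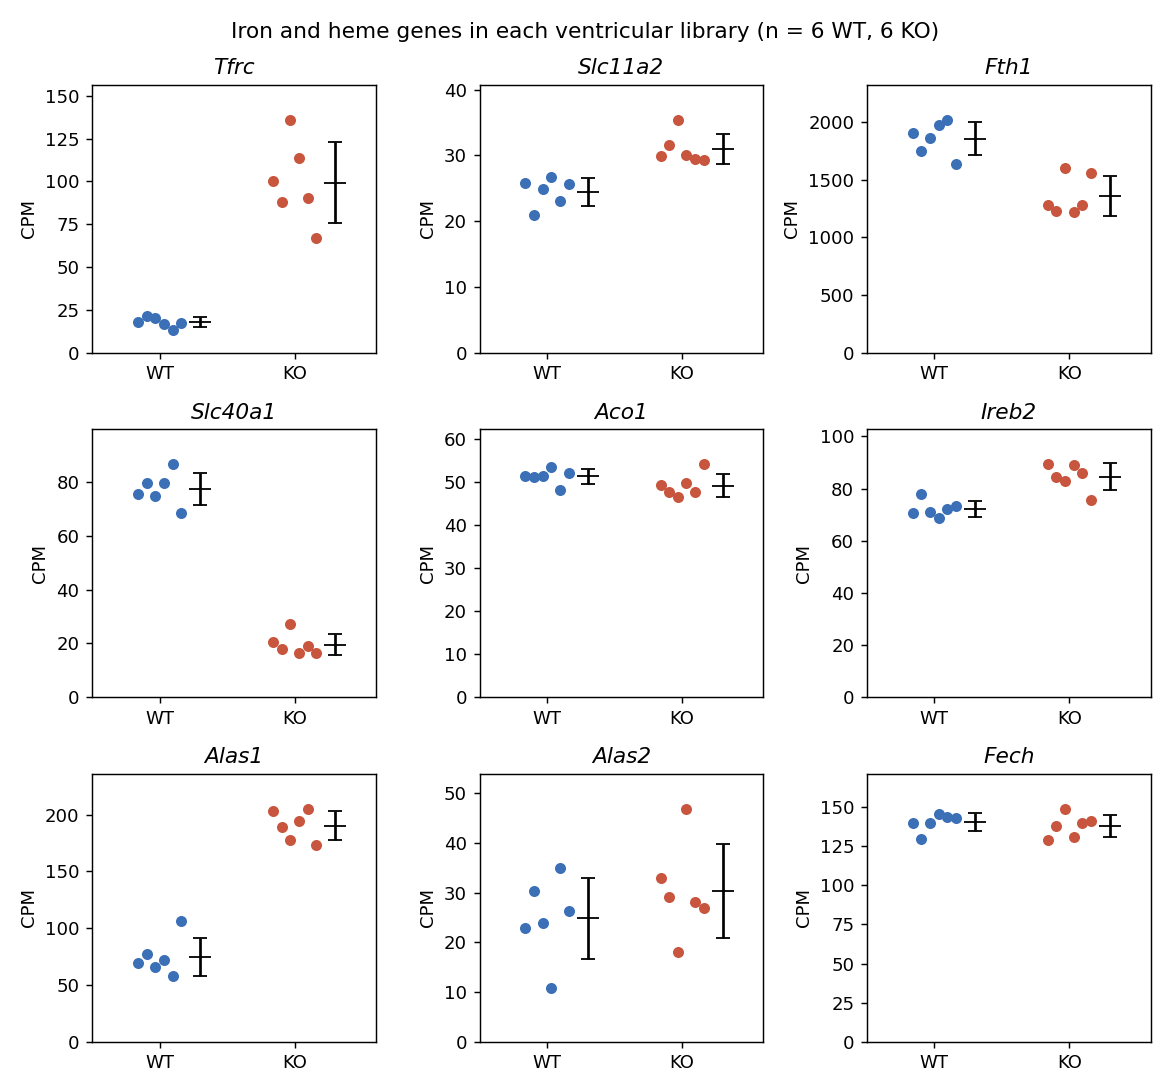
CPM of the 9 genes in each library, with WT in blue and KO in red, and the mean with its SD (n = 6) beside the points. The KO points lie above all WT points for Tfrc, Slc11a2 and Alas1 and below all WT points for Fth1 and Slc40a1, whereas the groups overlap for Aco1, Ireb2, Alas2 and Fech.

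Among the genes of iron uptake, Tfrc (MGP_C57BL6NJ_G0023158, chromosome 16, 31348308 to 31375753, plus strand, C57BL/6NJ assembly) changed most. In WT hearts Tfrc was at 13.4 CPM at the lowest, 17.6 at the median and 21.4 at the highest. In KO hearts it was at 66.8, 95.4 and 136 CPM. The lowest KO heart thus stood about 3 times as high as the highest WT heart, and KO hearts also varied more among themselves. The log2 fold change was 2.47 (standard error 0.16, adjusted p = 7.75e-08 from edgeR), and 158 of the 17155 rows had a higher one. An exact two-sided permutation test on the 6 and 6 libraries gave p = 0.00216, the smallest that this design allows.

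Slc11a2 (chromosome 15, 106184796 to 106222135, minus strand), the transporter that carries iron from the endosome into the cytosol, showed a small rise. Slc11a2 ranged from 20.9 to 26.7 CPM in WT with a median of 25.3, and from 29.3 to 35.4 CPM in KO. Every KO heart was above every WT heart, and the KO hearts lay close together apart from KO replicate 3, the highest. Its log2 fold change was 0.34 (standard error 0.07, adjusted p = 0.00059 from edgeR).

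Ferritin heavy chain mRNA was by far the most abundant of these transcripts. Fth1 (chromosome 19, 7609291 to 7611680, plus strand) was at 1637 CPM at the lowest, 1881 at the median and 2018 at the highest in WT hearts. In KO hearts it was at 1217, 1280 and 1600 CPM. The groups came close without touching, since KO replicates 3 and 6 reached 1600 and 1560 CPM and WT replicate 6 lay at 1637. The other KO hearts lay lower, at 1217 to 1283 CPM. For Fth1 the log2 fold change was -0.45 (standard error 0.08, adjusted p = 0.000176 from edgeR). The GRCm38 annotation names 2 pseudogenes of Fth1, with which reads could be shared.

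Ferroportin, the only known iron exporter of mammalian cells, showed the deepest fall. Slc40a1 (MGP_C57BL6NJ_G0016387, chromosome 1, 46869053 to 46888658, minus strand) was at 68.5 to 86.7 CPM in WT hearts with a median of 77.7, and at 16.3 to 27.1 CPM in KO hearts with a median of 18.5. All KO hearts were low, and the highest of them, KO replicate 3, was far below the lowest WT heart. The log2 fold change was -1.98 (standard error 0.11, adjusted p = 1.74e-09 from edgeR; exact permutation p = 0.00216), and 289 rows had a lower one. In bulk tissue, fewer cells of a type and less RNA per cell cannot be told apart. Macrophages, which also carry ferroportin, gave a mixed picture: of 9 marker genes tested 2 were higher (Mrc1 and Mertk), 2 lower (Adgre1 and Csf1r) and 5 not called. The shares over all rows tested were 25.6% higher and 25.5% lower. The summed level of the 10 macrophage markers found was 260 to 359 CPM in WT and 274 to 423 CPM in KO, with Itgam at 0 counts in every library. The ranges of this sum overlapped, and its part in the fall of Slc40a1 was not tested.

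The mRNAs of the iron regulatory proteins themselves moved little. Ireb2 (chromosome 9, 55435213 to 55483977), which encodes the form that is degraded when iron is plentiful, ranged from 68.8 to 77.8 CPM in WT with a median of 71.6, and from 75.5 to 89.3 CPM in KO with a median of 85.3. Of the 6 KO hearts, 5 lay above all WT hearts, and KO replicate 6 lay within the WT range. The log2 fold change of Ireb2 was 0.23 (standard error 0.05, adjusted p = 0.001 from edgeR). Aco1 (chromosome 4, 39430559 to 39488543), the cytosolic aconitase that becomes an iron regulatory protein when it loses its iron-sulfur cluster, ranged from 48.2 to 53.5 CPM in WT and from 46.5 to 54.1 CPM in KO. The groups overlapped, with a log2 fold change of -0.06 (95% interval -0.15 to 0.03, adjusted p = 0.311 from edgeR).

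At the entry of heme synthesis, the housekeeping enzyme rose and the erythroid one did not pass the test. Alas1 (MGP_C57BL6NJ_G0035718, chromosome 9, 110979908 to 111000189, minus strand) was at 57.5, 70.5 and 106 CPM at the lowest, median and highest in WT hearts. In KO hearts Alas1 was at 173, 192 and 205 CPM. The highest WT heart was replicate 6, still far below the KO hearts, which formed a tight group. For Alas1 the log2 fold change was 1.35 (standard error 0.12, adjusted p = 4.07e-07 from edgeR; exact permutation p = 0.00216), and 639 rows had a higher one.

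Alas2 (chromosome X, 152440569 to 152463837, plus strand) ranged from 10.9 to 34.9 CPM in WT with a median of 25.2, and from 18.1 to 46.9 CPM in KO with a median of 28.6. The hearts of both groups were widely spread and overlapped, and the log2 fold change of 0.29 had a 95% interval from -0.24 to 0.82 (adjusted p = 0.409 from edgeR). Apex2 overlaps its span on the other strand and had 2104 counts over all libraries together, and no source says whether counting used the strand. Fech (chromosome 18, 66242503 to 66275218, minus strand) was at 130 to 146 CPM in WT and 129 to 149 CPM in KO. Its level was almost the same in both groups, with a log2 fold change of -0.02 (95% interval -0.12 to 0.07, adjusted p = 0.695 from edgeR).

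The spread of Alas2 followed that of globin mRNA. Hba-a1, the adult alpha-globin and the only globin of the erythroid marker list found by name, ranged from 282 to 977 CPM in WT and from 597 to 1179 CPM in KO. The WT heart with the least Hba-a1 (WT replicate 4) also had the least Alas2, and the hearts with the most of each were WT replicate 5 and KO replicate 4 in their groups. Across the 6 WT hearts Pearson's r between log2 levels was 0.989 (exact permutation p = 0.00139, adjusted p = 0.0111 over 8 relations) and Spearman's rho was 1.0 (p = 0.00278, adjusted p = 0.0222). Across the 6 KO hearts r was 0.923 (exact permutation p = 0.00278, adjusted p = 0.0111) and rho was 0.943 (p = 0.0167, adjusted p = 0.0667). Without the 2 hearts farthest from the median of Hba-a1, r was 0.888 in WT and 0.805 in KO. The other 6 relations, of Fech, Tfrc and Slc40a1 with Hba-a1 in each group, did not pass after adjustment, and the nearest was that of Fech in KO hearts (r = -0.887, exact permutation p = 0.0208, adjusted p = 0.0556). When Slc4a1, a red cell marker of very low count, took the place of Hba-a1, that relation passed by r (-0.981, exact permutation test, adjusted p = 0.0167). It did not pass by rho (-0.943, exact permutation test, adjusted p = 0.0667).

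Too few red cell markers were tested to judge a shift of the group. Of the 15 symbols of the list, 9 were in the table and 3 passed the filter on low counts. Of these 3, 1 was higher and none lower, where 25.6% of all rows tested were higher and 25.5% lower. Hba-a1 and Slc4a1 (the red cell anion exchanger) were not called, with log2 fold changes of 0.22 and 0.22 and adjusted p of 0.542 and 0.818 (edgeR). The summed level of the 9 markers was 297 to 999 CPM in WT and 628 to 1207 CPM in KO, nearly all of it Hba-a1, and none of the 9 was at 0 counts in all libraries. Gata1 and Rhag, however, reached at most 2 counts in any library. By likeness of the pattern within genotypes (Pearson's r over the 12 libraries after each genotype's mean was subtracted, a description), the 3 rows nearest to Alas2 among 14788 were an unannotated locus that the table describes as beta-globin (0.97), an unnamed globin row on chromosome 7 (0.97) and Hba-a1 (0.96).

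**Figure D2:**
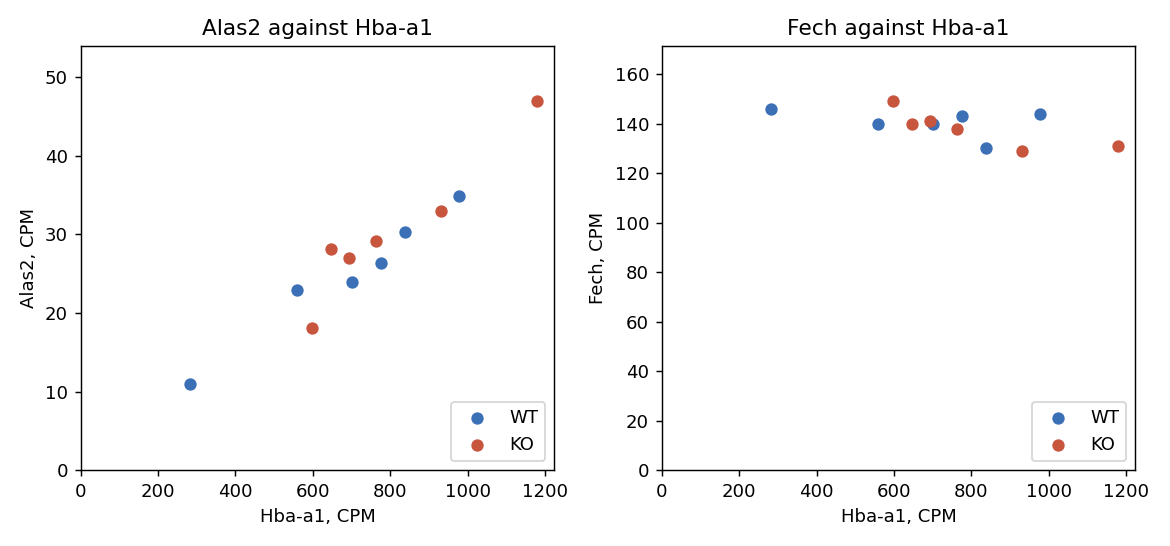
Level of Alas2 (left) and Fech (right) against Hba-a1 in each library, all in CPM, with WT in blue and KO in red. Alas2 rises along with Hba-a1 in both groups, from 10.9 CPM in the WT heart with 282 CPM of Hba-a1 to 46.9 CPM in the KO heart with 1179, while Fech stays between 129 and 149 CPM.

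The nearest rows of the other genes by the same measure were of varied kinds. For Tfrc they were Gabpb1 (0.93), Megf10 (0.91) and Zbtb20 (0.90). For Fth1 they were Ppm1a (0.97), Tdrkh (0.94) and Sqstm1 (0.94), the last an autophagy receptor, and for Slc40a1 they were Nudt7 (0.93), Acot1 (0.92) and a locus described as acyl-CoA thioesterase (0.91). For Alas1 they were Rbfox2 (0.91), Trim32 (0.89) and Hdac7 (0.88). For Slc11a2 they were Smyd1, Ndufaf1 and Nova1 (each 0.94), for Fech Sp9 (0.95), Adcy9 and Vcp (0.94 each), for Aco1 Dedd, Top3a (0.91 each) and Atg4d (0.90), and for Ireb2 Spon2, Sfrp2 and an unnamed row described as a beta-thymosin (0.92 each). All of these share the same 12 libraries, and the nearest of 14788 rows were picked for each gene, so the values are a description only.

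Levels of different genes can be set side by side only per length, and the deposited FPKM (fragments per kilobase of gene, scaled to library size) was used for this. In WT hearts the order of the medians was Fth1 (2152 FPKM), Slc40a1 (51.0), Fech (48.2), Alas1 (42.0), Aco1 (36.9), Alas2 (20.4), Slc11a2 (18.7), Ireb2 (12.1) and Tfrc (9.05). Neighbours from Slc40a1 to Aco1 overlapped in their ranges, and that of Alas2 was wide enough to overlap Slc11a2, Ireb2 and Tfrc. In KO hearts the order was Fth1 (1498), Alas1 (117), Tfrc (49.1), Fech (47.6), Aco1 (35.1), Alas2 (23.2), Slc11a2 (22.9), Ireb2 (14.8) and Slc40a1 (12.3). Here Tfrc overlapped Fech and Aco1, Ireb2 overlapped Slc40a1, and the wide range of Alas2 overlapped Tfrc, Aco1, Slc11a2, Ireb2 and Slc40a1. Tfrc thus went from the last place of 9 to the third, and Slc40a1 from the second to the last. The length behind the FPKM is shorter than the deposited gene length for 6 of the 9 genes. With CPM per kilobase of the deposited length, Slc40a1 took place 4 in WT and Tfrc place 4 in KO, and their last places were the same.

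**Figure D3:**
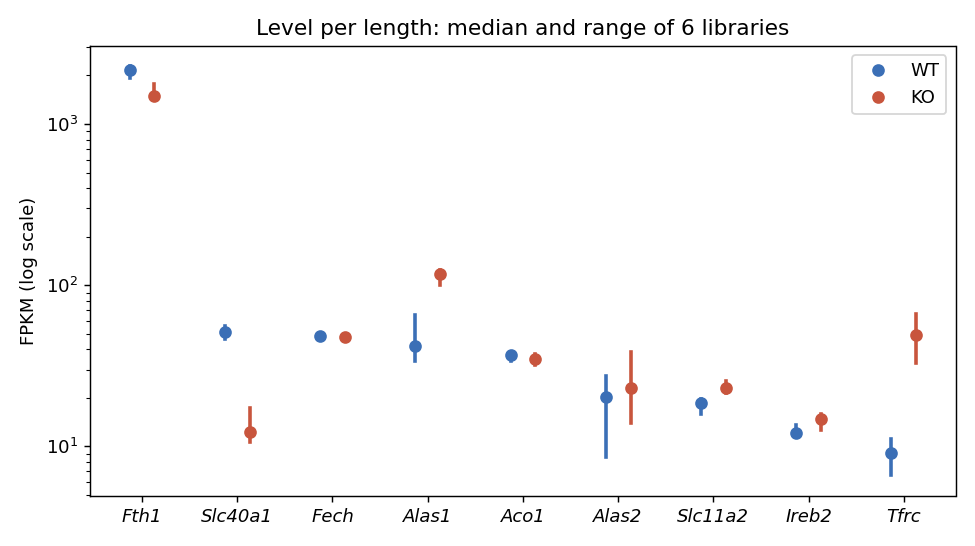
Deposited FPKM of the 9 genes on a log axis, as the median (point) and the range (line) of the 6 WT (blue) and 6 KO (red) libraries, ordered by the WT median. Fth1 lies far above the rest in both groups. By the median, Tfrc moves from place 9 in WT to place 3 in KO, and Slc40a1 from place 2 to place 9.

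The genes around these were taken from 6 lists written from general knowledge. Over the 6 lists, 54 of the 66 genes found were tested, and 16 were higher and 22 lower, with a median log2 fold change of -0.13. Over all rows tested, 25.6% were higher and 25.5% lower, and the counts of each list below are to be read beside these shares. Of the 13 tested genes of iron uptake and transport, 6 were higher and 5 lower. Slc39a14, a carrier of iron not bound to transferrin, rose from 45.1 ± 3.96 to 77.1 ± 13.1 CPM (SD, n = 6; log2 fold change 0.77, adjusted p = 9.82e-06 from edgeR). Trf, transferrin itself, rose with a log2 fold change of 1.07 from a low level (1.57 CPM in WT). Both mitochondrial iron importers were lower. Slc25a28 (mitoferrin 2) fell from 40.9 ± 1.95 to 22.1 ± 2.95 CPM (log2 fold change -0.89, adjusted p = 6.75e-08), and Slc25a37 (mitoferrin 1) had a log2 fold change of -0.29 (adjusted p = 0.000454).

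Of the 8 tested genes of iron storage, export and sensing, 4 were higher and 2 lower. Fbxl5, which senses iron and directs the degradation of the Ireb2 product, fell from 72.8 ± 1.38 to 40.9 ± 2.73 CPM (log2 fold change -0.83, standard error 0.05, adjusted p = 9.62e-10 from edgeR). Epas1, a hypoxia-inducible factor whose mRNA is known to carry an iron-responsive element, rose from 392 ± 14 to 498 ± 29.2 CPM (log2 fold change 0.35, adjusted p = 2.24e-05). The strict pattern searched above listed no site in Epas1. Hif1a, of the same family, rose from 98.0 ± 6.52 to 178 ± 15.5 CPM (log2 fold change 0.86, adjusted p = 8.5e-09 from edgeR).

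In the promoter table of RefSeq on GRCm38.p6, which spans 250 bases before to 50 after each start, 7 of the 10 genes had an entry (all but Slc40a1, Slc11a2 and Fech). The core of the hypoxia response element, ACGTG on either strand, was present in Tfrc alone of the 7, beside 19.6% of all 32851 promoters. It lies 2 bases before the first annotated start of Tfrc, and the window is shown in 30 bases with the core in capitals.
Tfrc, chr16:32608882-32608911, plus strand: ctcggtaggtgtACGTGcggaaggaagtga
The GATA motif AGATAA was present on the reverse strand of the Alas2 promoter and in none of the other 6, beside 11.2% of all promoters.
Alas2, chrX:150547319-150547348, plus strand: ctactttgctttTTATCTttagcagaggcc
The antioxidant response element TGACNNNGC, found in 12.4% of all promoters, had no match in the 7.

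Beyond the first step, the enzymes of heme synthesis and their helpers were more often lower than higher in the KO hearts: of 13 tested, 8 were lower and 2 higher, with a median log2 fold change of -0.28, where 25.5% of all rows were lower and 25.6% higher. Alad, which follows aminolevulinate synthase, fell from 31.8 ± 2.74 to 15.4 ± 0.609 CPM (SD, n = 6; log2 fold change -1.04, standard error 0.07, adjusted p = 1.75e-09 from edgeR). Of the later enzymes, Uros had a log2 fold change of -0.95 (adjusted p = 7.24e-07) and Urod one of -0.66 (adjusted p = 7.47e-09). Cpox (-0.14, adjusted p = 0.21) and Ppox (-0.11, adjusted p = 0.189), the last steps before Fech, did not pass. Clpx, a mitochondrial unfoldase that acts on aminolevulinate synthase, fell from 297 ± 13 to 169 ± 18.4 CPM (log2 fold change -0.81, adjusted p = 2.58e-08).

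**Figure D4:**
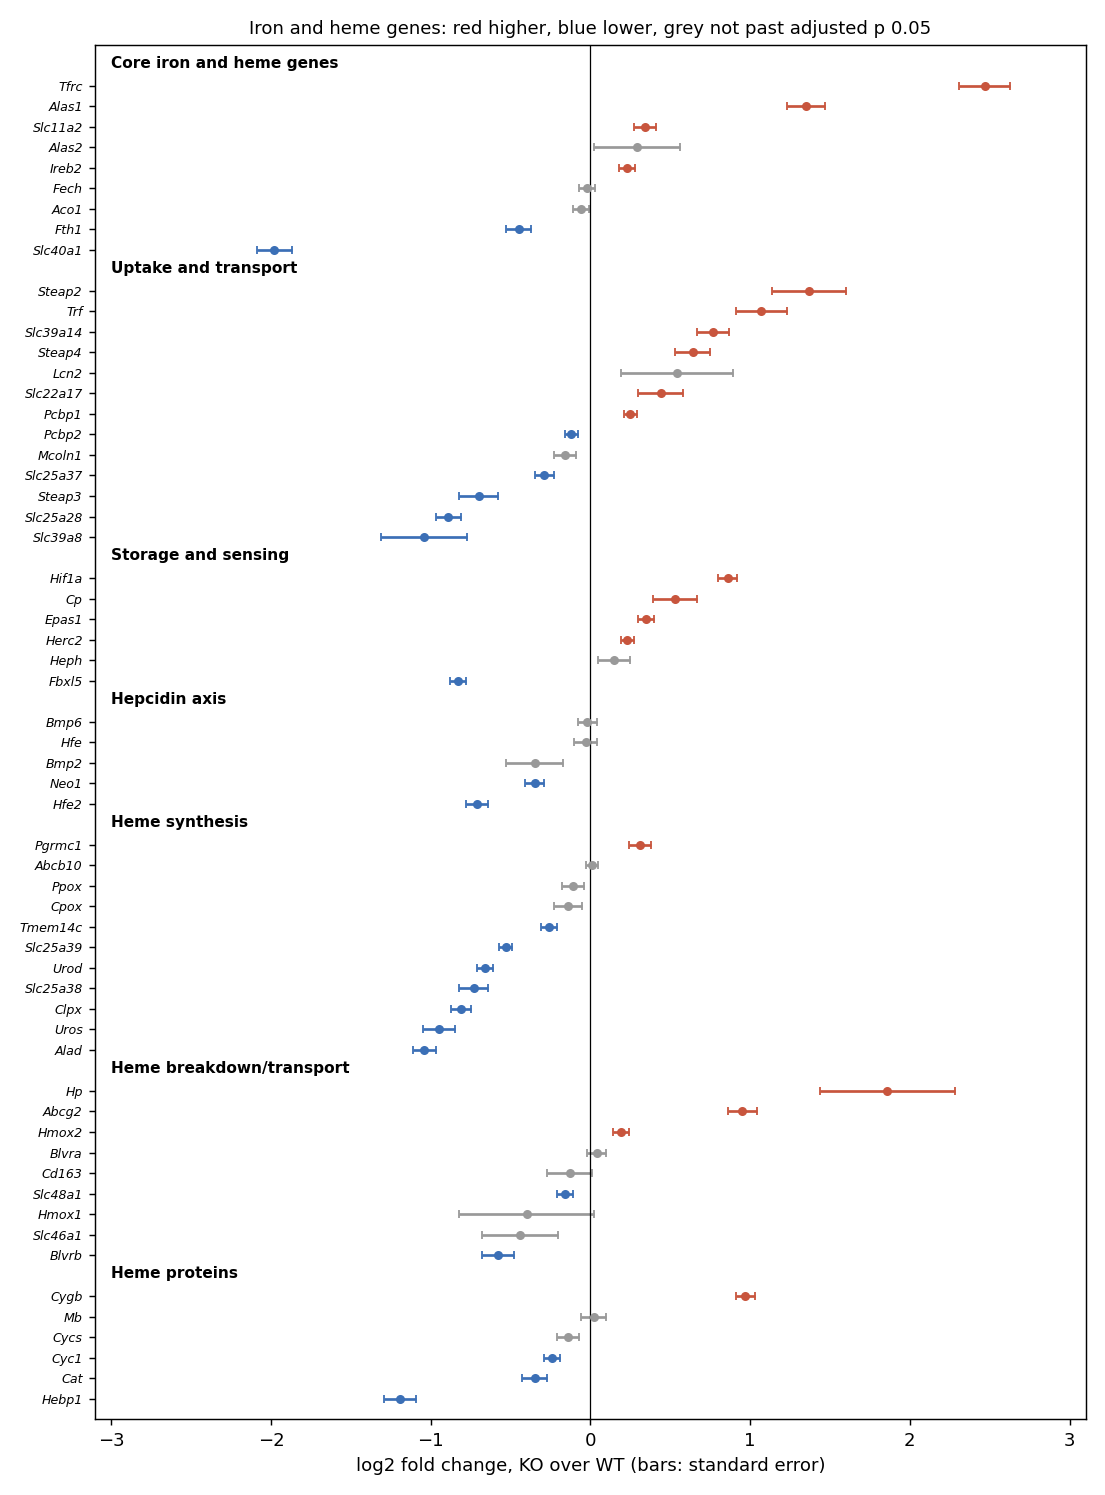
Log2 fold change of KO over WT with its standard error for the 9 genes and for 50 of the 54 tested genes of the 6 surrounding lists, red where higher, blue where lower and grey where the adjusted p was 0.05 or more. Tfrc (2.47) and Slc40a1 (-1.98) are the outermost points, and 7 of the 11 points drawn for heme synthesis are blue.

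The hepcidin axis held 5 tested genes, of which 2 were lower (Hfe2, hemojuvelin, log2 fold change -0.71, and its partner Neo1, -0.35) and none higher. With no filter on low counts beyond 1 count, 4 genes of this list were called, 1 higher and 3 lower. Bmp2, a ligand of the pathway, had a log2 fold change of -0.35 and did not pass (adjusted p = 0.123 from edgeR). Hamp, hepcidin itself, the hormone that removes ferroportin from the cell surface, was at 0 counts in all 12 libraries. By counting error alone this allows a level of up to 0.0956 to 0.126 CPM per library (3 counts). The span of Hamp (chromosome 7, 30988844 to 30990258) lies within that of Hamp2 (30960752 to 30990756), however. Reads that fall on both rows may have been left uncounted, so the true level of Hamp may lie above this limit. In heme breakdown and transport, 3 of 9 were higher and 2 lower. Abcg2, a porphyrin exporter, rose from 43.4 ± 4.71 to 84.0 ± 10.4 CPM (log2 fold change 0.95, adjusted p = 1.81e-07), and Blvrb, a biliverdin reductase, had a log2 fold change of -0.58. Hp, haptoglobin, which binds free hemoglobin, rose by 1.86 ± 0.42 (standard error) on the log2 scale, with an adjusted p of 0.00137 by edgeR, from a very low level of 0.435 CPM in WT. Hmox1, the inducible heme oxygenase, varied from 12.1 to 59.7 CPM in WT and from 16.5 to 45.3 CPM in KO and did not pass (adjusted p = 0.458). Of 6 heme-binding proteins tested, Cygb (cytoglobin) was higher (log2 fold change 0.97), Hebp1 (-1.19), Cyc1 (-0.24) and Cat (-0.35) were lower, and Mb and Cycs did not pass.

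Marker lists of other cell types and of heart muscle were also counted, and their part in the changes of the iron genes was not tested. The counts are to be read beside all rows tested, of which 25.6% were higher and 25.5% lower. Of 8 fibroblast markers 7 were higher and 1 lower, with a summed level of 1509 to 1754 CPM in WT and 2357 to 4346 CPM in KO. Dcn and Pdgfra had log2 fold changes of 0.63 and 0.87. Of 8 endothelial markers 5 were higher and 1 lower, with sums of 1487 to 1664 CPM and 1705 to 2032 CPM. Of 10 cardiomyocyte markers 1 was higher (Mybpc3) and 5 lower, and the sums of 54649 to 60191 CPM in WT and 46908 to 64212 CPM in KO overlapped. The defining markers of heart muscle were present at high levels in all libraries, with Myh6 at no less than 12502 CPM.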

How the data were processed

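The authors purified mRNA on poly-T beads, and deposited 1 table with the raw count of reads per gene (HTSeq) and an FPKM value for each of the 12 libraries. The submitters' processing notes name HISAT2 2.0.5 and mm10, whereas the identifiers are those of the C57BL/6NJ assembly, whose coordinates are given here. The deposited FPKM divides by a gene length that is shorter than the deposited length for many genes. The authors' own comparison (fold changes and p-values) and group means were not used.

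Counts were tested in R 4.3.3 with edgeR 4.0.16 (filterByExpr, TMM, robust quasi-likelihood test, KO against WT, Benjamini-Hochberg over 17155 rows). CPM uses TMM-scaled library sizes, and log2 CPM a prior count of 2. Standard errors were derived from the F statistic of each row, and 95% intervals use the normal approximation. Globin relations used log2(CPM + 0.5). The scripts were tested on simulated data. Pairs of libraries within a genotype differed beyond sampling noise (smallest chi-square over its degrees of freedom 7.41), and each library counted as 1 replicate. By this measure the KO group was uneven. Pairs with KO replicate 3 gave 29.1 to 52.6 and pairs with KO replicate 6 gave 23.9 to 47.9. Pairs among the other KO libraries gave 11.7 to 16.8, and WT pairs 7.41 to 22.6. The labels do not describe how animals were assigned to batches. Alternatives used DESeq2 1.42.0, limma 3.58.1, other scalings and filters, a replicate block, and each library left out.

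The genes, lists and tests were chosen with earlier results of these data known. The genes named are Sdhaf4, the 10, in each surrounding list the 3 with the smallest p plus Hmox1, Slc25a37, Trf, Ncoa4, Epas1, Hif1a and Alad where tested, of each marker list the 2 highest by CPM and the 2 with the smallest p, and the 3 rows most like each gene. Some genes counted in the lists are not reported here by name or drawn. Others named beside a count (such as Uros, Cpox, Ppox, Cat, Mb, Cycs, Adgre1, Slc4a1, Gata1, Rhag, Itgam and Hamp) were chosen after their values were seen.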

Additional observations from a re-analysis of the deposited data

Results flagged for a closer look

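In 6 of 98 groups of 6 values examined (the named genes in each genotype), a single library lay apart by Dixon's test at the 95% level (its distance to the next library relative to the whole range), where chance gives about 4.9. KO replicate 3 was the high library in 3 of them: Slc11a2 at 35.4 CPM (other KO hearts 29.3 to 31.6), Hmox1 at 45.3 CPM (16.5 to 22.6) and Myh6 at 18628 CPM (12502 to 14603). Sdhaf4 was at 2.73 CPM in KO replicate 1 (other KO hearts 2.25 to 2.41), far below every WT heart. Cyc1 was at 776 CPM in WT replicate 1 (838 to 861 in the others), and Tnni3 at 3332 CPM in WT replicate 6 (3773 to 4019).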

How the results depend on the processing

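The 9 genes kept their direction and their side of the threshold in all 12 fits that each left out 1 library and in all 90 values under the other 10 settings (scaling, test, filter, replicate block, unannotated loci left out). With a library left out, Tfrc had log2 fold changes of 2.36 to 2.56, and the ranges were -2.11 to -1.94 for Slc40a1, 1.28 to 1.48 for Alas1 and -0.51 to -0.42 for Fth1, and Alas2, which did not pass in any of them, moved between 0.12 and 0.40. By the stricter criterion, which 10.2% of all rows passed, the calls were 3 of the 9 genes (Tfrc, Alas1 and Slc40a1). Of the 54 surrounding genes tested 7 were called in place of 38. Of the 38 cell markers tested 5 were called in place of 25, since this criterion asks for a larger change. Slc4a1, which reached at most 31 counts in any library, was also put in place of Hba-a1. The relation with Alas2 in WT hearts then had r = 0.758 and no longer passed (exact permutation test, adjusted p = 0.107). That in KO hearts still passed (r = 0.947, exact permutation test, adjusted p = 0.0111). That of Fech in KO hearts now passed by r (-0.981, exact permutation test, adjusted p = 0.0167, in place of 0.0556), but not by rho (-0.943, exact permutation test, adjusted p = 0.0667). With the deposited FPKM in place of CPM, Fech with Hba-a1 in KO hearts had r = -0.786 (exact permutation test, adjusted p = 0.174). Alas2 with Hba-a1 still passed in both groups by r (exact permutation test, adjusted p = 0.0111 in each). Same-numbered WT and KO libraries did not deviate together (r from -0.162 to 0.0243), so no pairing of the hearts by number was seen. A small shared effect of litter or handling could be missed by this check. With the replicate block, 6 of the 9 genes, 37 surrounding genes and 26 cell markers were called, and 8233 rows in place of 8767. Of the 6 WT libraries, 1 correlated best with the KO library of its own number. The number of genes whose libraries do not overlap was 5 also with library size as the only scaling, an alternative chosen after seeing the data.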

Other observations

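The table holds an unannotated locus on an unplaced scaffold, Novel02481, whose own description names a ferritin light chain, and it was looked up because Ftl1 was not found by name. It was at 130 ± 3.0 CPM (SD, n = 6) in WT hearts and 109 ± 8.49 CPM in KO hearts, and the change on the log2 scale was -0.26 ± 0.05 (standard error) with an adjusted p of 0.000502 by edgeR. The description comes from another species and does not show that the locus is Ftl1.

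Among the reductases that prepare iron for transport, the members went in different directions: Steap2 and Steap4 had log2 fold changes of 1.37 (adjusted p = 7.72e-05, edgeR) and 0.64 (0.000139), and Steap3, the reductase of the transferrin endosome in red cell precursors, one of -0.70 (0.000163). The iron carrier Slc39a8, close in sequence to Slc39a14, had a log2 fold change of -1.04 (adjusted p = 0.00386) at a level of 1.39 ± 0.225 CPM in WT. These genes were named after their values were seen.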
